A study of Mus musculus with 10 samples.

Results

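The 7 genes described here are Tmem255a, Hap1, Slc9a4, Wfs1, Necab2, Nos1 and Smim43. Grouped here under the heading of neuronal genes, a trait not measured for each, these genes had some of the largest differences between the sides of the brain after a one-sided cortical injury. They are 7 of 30142 genes measured, and they were chosen by that difference itself, so their side values are given as a description with no test. Each was read from the row of the deposited table that named it alone. Every one of the 7 had a single such row, and Smim43 was listed there under its older symbol Gm11549. Brain tissue was taken 7 days after a controlled cortical impact, a brain injury in which a driven tip deforms the cortical surface, here of one hemisphere and labelled 2 mm. The ipsilateral group held tissue from the impact site (5 arrays), and the contralateral group held the corresponding region of the other hemisphere (5 arrays). The labels gave adult mice of both sexes aged 8 to 12 weeks, and named no strain, genotype or drug. All mice of both groups were therefore injured mice, no sham-operated or uninjured brain was measured here, and a change of the contralateral side itself could not be seen.

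The arrays were of the Affymetrix whole-transcript type, 1 per sample, and the values are log2 signals, so that a difference of 1 is a 2-fold difference in signal. Array medians lay between 4.79 and 4.84 ipsilaterally and between 4.71 and 4.77 contralaterally, so every ipsilateral median was above every contralateral one and an offset between arrays cannot be told apart from side. Arrays correlated across genes at 0.990 to 0.996 within the ipsilateral side and at 0.992 to 0.997 within the contralateral side. Of 12 pan-neuronal genes listed, none stayed below the array medians, and their list means were 13.12 to 13.57 on ipsilateral and 13.47 to 13.68 on contralateral arrays. The labels call the samples biological replicates but do not say whether arrays with the same number came from the same mouse. In RNA from whole tissue, fewer cells of a type and less RNA per cell cannot be told apart.

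Nos1 encodes neuronal nitric oxide synthase, which makes the gas messenger nitric oxide from arginine when calcium-bound calmodulin activates it. Necab2 encodes a neuronal EF-hand calcium-binding protein that binds the adenosine receptor encoded by Adora2a and the metabotropic glutamate receptor encoded by Grm5. Wfs1 encodes wolframin, a membrane protein of the endoplasmic reticulum that takes part in calcium handling and the response to unfolded protein. Hap1 encodes huntingtin-associated protein, an adaptor for transport along microtubules that is abundant in the hypothalamus and limbic brain. Slc9a4 encodes a sodium-proton exchanger best known from stomach and kidney. Tmem255a encodes a transmembrane protein. Smim43 encodes a small membrane protein that was described in differentiating mouse embryonic stem cells as a micropeptide binding glucose transporters.

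Sequences just upstream of an annotated start are shown for 4 of these genes. Wfs1 and Nos1 were taken as one of the pairs closest from array to array, as described below. Hap1 was taken because it shares a motif with Nos1, and Smim43 because it differed in the opposite direction. RefSeq entries of build GRCm38.p6 matched 6 of the 7 genes by symbol (7 entries, of which Hap1 had 2), and Slc9a4 had none. Each line gives the 250 bases before the annotated start, 5′ to 3′ on the gene's strand, for Wfs1 at chr5:36988983-36989232, minus strand, Nos1 at chr5:117866589-117866838, plus strand, Hap1 (the first of its entries) at chr11:100356142-100356391, minus strand, and Smim43 at chr3:36521413-36521662, minus strand. Capitals mark GGGCGG (the GC box) and TGACG (the core of a cyclic AMP response element), each searched on both strands.
Wfs1: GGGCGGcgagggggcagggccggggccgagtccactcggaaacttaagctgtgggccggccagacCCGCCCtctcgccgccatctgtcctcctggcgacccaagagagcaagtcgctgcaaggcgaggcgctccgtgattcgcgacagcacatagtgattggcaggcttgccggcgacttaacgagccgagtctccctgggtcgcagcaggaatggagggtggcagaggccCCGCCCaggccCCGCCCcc
Nos1: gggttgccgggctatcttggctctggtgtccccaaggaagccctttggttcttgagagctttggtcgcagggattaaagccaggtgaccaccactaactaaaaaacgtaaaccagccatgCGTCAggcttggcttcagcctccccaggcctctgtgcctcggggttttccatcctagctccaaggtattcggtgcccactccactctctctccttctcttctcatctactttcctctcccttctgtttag
Hap1: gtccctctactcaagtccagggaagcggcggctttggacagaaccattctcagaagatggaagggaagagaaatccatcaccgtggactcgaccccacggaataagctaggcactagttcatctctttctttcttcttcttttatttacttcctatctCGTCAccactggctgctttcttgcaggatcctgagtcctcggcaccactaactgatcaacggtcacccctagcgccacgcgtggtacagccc
Smim43: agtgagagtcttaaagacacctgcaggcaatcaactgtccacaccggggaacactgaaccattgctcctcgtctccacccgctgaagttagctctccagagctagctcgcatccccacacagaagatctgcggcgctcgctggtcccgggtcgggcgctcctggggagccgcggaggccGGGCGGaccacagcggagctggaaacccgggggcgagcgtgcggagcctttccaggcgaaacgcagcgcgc

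Among 32851 promoter entries of the same length, 32.7% held GGGCGG and 17.8% held TGACG. The Wfs1 window held GGGCGG at 4 places, beginning 250, 185, 19 and 8 bases before the start, and the Smim43 window held it once, 71 bases before. TGACG occurred once in the Nos1 window, 130 bases before the start, and once in that of Hap1, 92 bases before. None of the 6 genes' windows held the full element TGACGTCA (1.55% of all entries), GCGNGGGCG, the EGR site (4.70%), TATAAA (12.4%), the MEF2 site (0.103%), or TAATTA, a homeodomain site (4.84%). TGANTCA, the AP-1 site (6.75%), occurred in the Necab2 window alone, 169 bases before the start. CANNTG, the E-box (66.2%), occurred in the windows of Smim43, Wfs1, Nos1 and Necab2 and in neither Hap1 entry nor that of Tmem255a. TGACG lies inside TGACGTCA, so these motifs overlap by construction. G and C made up 69.6% of the Wfs1 window, 65.2% of that of Smim43, 54.0% of that of Nos1 and 52.0% of that of Hap1, against a median of 52.4% over all entries. These are matches of letters and were not tested as binding sites. The Nos1 window ends in a stretch of mostly C and T followed by AG. Whether its entry begins at the first exon of the gene was not established. Use of any of these annotated starts in this tissue was not tested either.

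In ipsilateral tissue 6 of the 7 genes were higher and Smim43 was lower, and for each of the 7 no ipsilateral array overlapped a contralateral one. Over all 30142 genes, 2.04% had every ipsilateral array above every contralateral one and 5.21% had every one below; the share in either direction was 7.25%. In limma, at an adjusted p under 0.05, 5.55% of all genes were called. The members were picked by this contrast, so nothing follows from their count. By size of the log2 difference Tmem255a ranked 4th from the top of all genes, Hap1 18th, Slc9a4 24th, Wfs1 29th, Necab2 35th and Nos1 36th, and Smim43 ranked 4th from the bottom.

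Tmem255a had signals of 11.06, 11.51, 12.10, 10.95 and 11.79 on ipsilateral arrays 1 to 5, against 8.19, 8.47, 8.89, 9.73 and 8.49 on contralateral arrays 1 to 5. The sides were 1.22 apart at their nearest arrays, which were ipsilateral 4 and contralateral 4. The means were 11.48 ± 0.48 ipsilaterally and 8.75 ± 0.60 contralaterally (SD, n = 5 each), a log2 difference of 2.73 ± 0.30 (SE of the fit), or 6.63-fold.

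Nos1, the nitric oxide synthase, stood at 9.47, 10.32, 10.41, 9.76 and 10.12 on the ipsilateral arrays, against 8.12, 8.09, 8.57, 9.36 and 8.09 on the contralateral ones. Contralateral array 4 was far above the other 4 of its side and lay 0.11 below the lowest ipsilateral array. The log2 difference was 1.57 ± 0.27, with means of 10.02 ± 0.39 and 8.45 ± 0.55 (ipsilateral, then contralateral).

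Necab2, the calcium-binding gene, read 8.99, 9.65, 9.40, 9.17 and 9.56 ipsilaterally, against 7.27, 7.53, 7.87, 8.79 and 7.35 contralaterally. Contralateral array 4 again came closest, 0.20 below ipsilateral array 1. The log2 difference was 1.59 ± 0.27, with an ipsilateral mean of 9.35 ± 0.27 and a contralateral mean of 7.76 ± 0.62.

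Wfs1 gave 11.57, 12.07, 12.71, 11.94 and 12.36 on ipsilateral arrays, against 9.85, 9.83, 10.77, 11.44 and 9.97 on contralateral arrays. Contralateral arrays 3 and 4 stood above the other 3, and 4 left a gap of 0.13 between the sides. The difference was 1.76 ± 0.32 on the log2 scale (12.13 ± 0.43 against 10.37 ± 0.71).

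Hap1 measured 11.22, 11.56, 12.51, 11.16 and 10.99 ipsilaterally, against 8.99, 9.01, 9.77, 10.83 and 9.31 contralaterally. Ipsilateral array 3 was the highest of all 10, and contralateral array 4 lay 0.16 below the lowest ipsilateral array. The log2 difference was 1.91 ± 0.38 (11.49 ± 0.61 against 9.58 ± 0.77).

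Slc9a4 had another array pattern. The exchanger gene read 6.70, 8.03, 5.31, 6.21 and 6.47 ipsilaterally, against 4.45, 5.05, 4.87, 4.59 and 4.67 contralaterally. The spread lay on the ipsilateral side, where array 2 was the highest and array 3 the lowest, 0.26 above the highest contralateral array. The contralateral signals surrounded the array medians, so that expression over background there is not established and the log2 difference of 1.82 ± 0.39 (6.54 ± 0.98 against 4.73 ± 0.24) has no settled size. Without ipsilateral array 2 it was 1.45. That array had the highest choroid plexus score of its side, 9.25 against 5.76 to 7.59 on the other 4 ipsilateral arrays, and the highest hippocampal score, 7.23 against 6.17 to 6.98. Within sides Slc9a4 and the hippocampal score had r = 0.65 (exact p = 0.11, adjusted p = 0.585, in the permutation test described below). Its r farthest from 0 was with the striatal score, at -0.77 (exact p = 0.119, adjusted p = 0.585). Without ipsilateral arrays 2 and 3, r was 0.21 with the hippocampal score (exact p = 0.622) and -0.41 with the striatal score (exact p = 0.372). The part of these tissues in the Slc9a4 signal was not tested.

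Smim43 was the gene that was lower in injured tissue, at 7.73, 6.40, 7.38, 7.07 and 6.67 ipsilaterally against 9.96, 9.43, 9.36, 8.87 and 9.85 contralaterally. Contralateral array 4 was the lowest of its side, and the nearest arrays of the sides were 1.14 apart. The log2 difference was -2.44 ± 0.27 (7.05 ± 0.53 against 9.49 ± 0.43), so that the ipsilateral signal was lower by 5.44-fold.

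**Figure D1:**
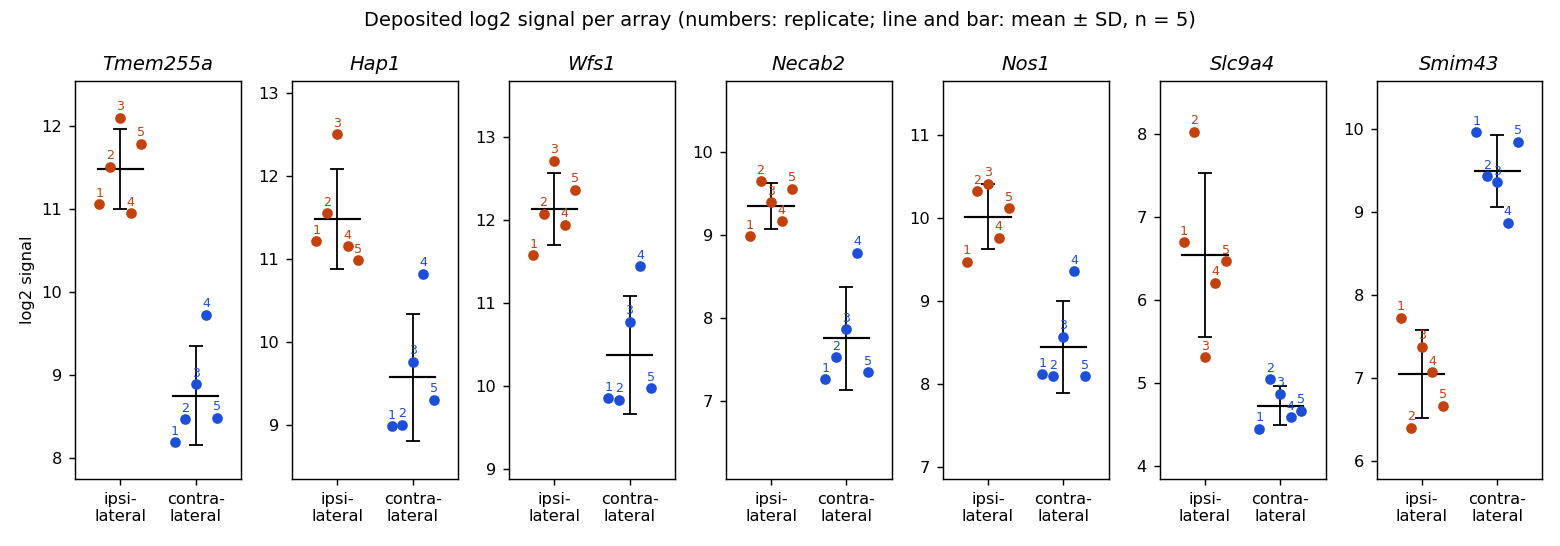
Log2 signal (y axis) of the 7 genes on ipsilateral (left, orange) and contralateral arrays (right, blue), with replicate numbers, the mean and the SD. Each panel spans the same number of log2 units. No gene's sides overlap, and contralateral replicate 4 is nearest to the ipsilateral arrays in Tmem255a, Hap1, Wfs1, Necab2, Nos1 and Smim43.

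These genes varied more between arrays of a side than most genes did. The ipsilateral SD of Necab2 exceeded that of 81.0% of all genes, and those of the other 6 exceeded 91.8% (Nos1) to 99.5% (Slc9a4). The contralateral SD exceeded that of 84.5% of genes for Slc9a4 and of 96.3% (Smim43) to 98.5% (Hap1) for the rest. The median SD over all genes was 0.155 ipsilaterally and 0.124 contralaterally.

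That variation within a side was not itself the ground for choosing the genes, and relations in it were tested. The tests were not independent of the choice, however, because both used the same arrays. Genes chosen for a large side difference can vary together wherever an array stands nearer to the other side. The passing pairs therefore cannot show a relation apart from that choice. For each of the 21 pairs of genes, signals were expressed as deviations from the mean of their own side and correlated over the 10 arrays, with an exact two-sided permutation test over the 14400 orders of arrays within sides and Benjamini-Hochberg adjustment over the 21 pairs. Of these pairs 10 passed at an adjusted p under 0.05. They were 9 of the 10 pairs among Tmem255a, Hap1, Wfs1, Necab2 and Nos1, all with positive r, and the pair of Necab2 and Smim43, with negative r. The share of all gene pairs that would pass was not computed. Among 10516 genes with a mean signal of at least 6, r above 0.8 occurred with Hap1 for 3.86% and Nos1 for 3.32%. It did so for 2.45% with Tmem255a, 2.03% with Wfs1 and 1.11% with Necab2, so such relations were not particular to these genes.

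The closest pairs were Tmem255a with Wfs1 (r = 0.94, rho = 0.85, exact p = 0.000625, adjusted p = 0.00802) and Wfs1 with Nos1 (r = 0.94, rho = 0.94, exact p = 0.00153, adjusted p = 0.0105). Necab2 and Nos1, which encode a calcium sensor and a calcium-dependent enzyme, were related at r = 0.94 and rho = 0.82 (exact p = 0.00236, adjusted p = 0.0105). Hap1 and Necab2 were the pair among these 5 genes that did not pass (r = 0.74, exact p = 0.0374, adjusted p = 0.0655). Necab2 and Smim43 ran in opposite directions within sides, at r = -0.82 and rho = -0.90 (exact p = 0.000764, adjusted p = 0.00802).

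The relations leaned on single arrays. Without contralateral array 4, 0 of the 21 pairs passed after adjustment in the exact permutation test, while 9 had an unadjusted p under 0.05. Among the 5 genes the r values then ran from 0.37 (Hap1 with Necab2) to 0.88 (Tmem255a with Wfs1, exact p = 0.00382), and Necab2 with Smim43 stood at -0.85 (exact p = 0.00799). Without contralateral array 3, 2 pairs passed, and with Spearman's rho 4 pairs passed on all 10 arrays. After the 2 arrays farthest from the median on the first gene's scale were left out, r was 0.82 for Tmem255a with Wfs1 (exact p = 0.0191), 0.83 for Wfs1 with Nos1 (exact p = 0.0278), 0.88 for Necab2 with Nos1 (exact p = 0.0167) and -0.83 for Necab2 with Smim43 (exact p = 0.0222). For Tmem255a with Nos1 it was 0.80 (exact p = 0.0625). All 3 passing pairs of Hap1 lost support. Their r was 0.42 with Tmem255a (exact p = 0.312), 0.57 with Wfs1 (exact p = 0.212) and 0.57 with Nos1 (exact p = 0.160). Without contralateral array 4 alone, r was 0.71, 0.73 and 0.69 in the same order (exact p = 0.0479, 0.0365 and 0.0743, unadjusted). With so few arrays, a lost pass cannot say how far a relation rested on the arrays left out.

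**Figure D2:**
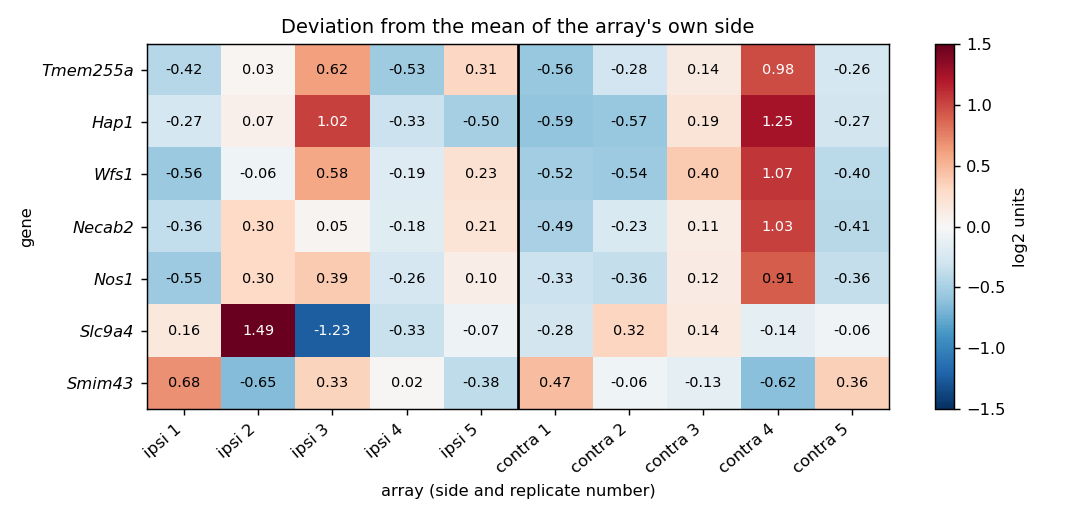
Deviation of each gene (rows) on each array (columns) from the mean of the array's own side, in log2 units, with higher values in red and lower ones in blue. Contralateral replicate 4 deviates by 0.91 to 1.25 in Tmem255a, Hap1, Wfs1, Necab2 and Nos1, by -0.62 in Smim43 and by -0.14 in Slc9a4.

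Slc9a4 followed none of the others. Its r with the other 6 genes ran from -0.48 to 0.12, and its adjusted p in the exact permutation test from 0.332 to 0.884. Smim43 had negative r with each of the 5 genes, from -0.82 (Necab2) to -0.32 (Hap1), and of these only that with Necab2 passed.

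**Figure D3:**
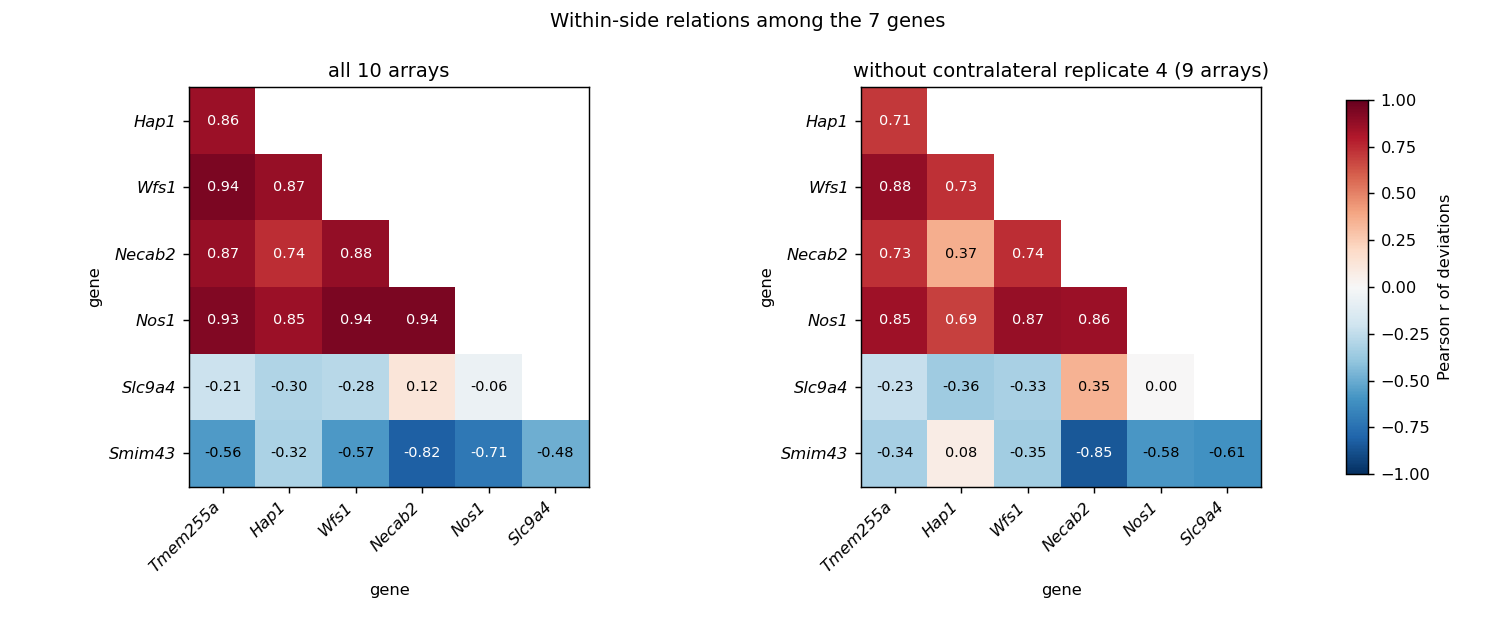
Pearson r of deviations from the side means for the 21 pairs, over all 10 arrays (left) and without contralateral replicate 4 (right); red is positive and blue negative. Among Tmem255a, Hap1, Wfs1, Necab2 and Nos1 r runs from 0.74 to 0.94 on the left and from 0.37 to 0.88 on the right.

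Contralateral array 4 also differed from its side in marker genes of other regions and cells. Its hypothalamic score, the mean log2 signal of the list, was 5.71 against 5.42 to 5.52 on the other 4 contralateral arrays, and its claustrum and amygdala score was 8.70 against 7.87 to 8.38; both lay above the lowest ipsilateral array (5.67 and 8.14). Its oligodendrocyte score was 10.17 against 10.99 to 11.27. Its neocortical score, 9.71, was inside the range of the other contralateral arrays (9.66 to 9.82), and its microglia and macrophage score was 7.78, as on contralateral array 1, below the other 3 arrays of the side. The part of these tissues in the 5 genes' signals on that array was not tested.

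Over all 10 arrays, the 7 genes were compared with 7 marker scores in the same way, 49 relations in all. In the exact permutation test 0 of the 49 passed after adjustment, and 6 had an unadjusted p under 0.05. The highest r was that of Hap1 with the hypothalamic score (r = 0.81, rho = 0.59, exact p = 0.00514, adjusted p = 0.126), and r was 0.41 (exact p = 0.248) when the 2 farthest arrays were left out and 0.84 (exact p = 0.0257) without contralateral array 4. Nos1 with the same score gave r = 0.72 and rho = 0.71 (exact p = 0.00500, adjusted p = 0.126). For Nos1, r was 0.68 (exact p = 0.163) without the 2 farthest arrays and 0.72 (exact p = 0.0715) without contralateral array 4. Also among the 6 were Wfs1 and Tmem255a with the hypothalamic score (exact p = 0.0108 and 0.0221, unadjusted). The others were Hap1 with the striatal and pan-neuronal scores (exact p = 0.0392 and 0.0437, unadjusted). Smim43 with the hippocampal score gave r = -0.67 (exact p = 0.0660, adjusted p = 0.462), and -0.88 without contralateral array 4 (exact p = 0.00972, unadjusted). Without that array, too, 0 of the 49 passed after adjustment.

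Single genes of the region lists were then compared between the sides. Of 18 measured neocortical layer genes 8 fell and 1 rose in limma, adjusted over all genes, with the largest falls in Lamp5 (-2.24 ± 0.30) and Pou3f2 (-1.44 ± 0.26), and the median log2 difference was -0.63. The gene that rose was Bcl11b (0.86 ± 0.16), which deep-layer and striatal neurons both use. Over all genes 4.33% were called lower and 1.22% higher (1305 and 369 genes), with a median of 0.02. With each array centred on its median these were 2623 and 232 genes, with a median of -0.05. At an unadjusted p under 0.05 in limma, 3400 of all 30142 genes were lower and 3020 higher. Of 20 hypothalamic genes 3 rose and 0 fell (10 and 0 at an unadjusted p under 0.05), the largest being Zcchc12 (1.15 ± 0.23) and the imprinted gene Ndn (0.81 ± 0.19) and the third Dlk1 (0.70 ± 0.16), also imprinted; the median was 0.30, and Otp, Hcrt and Nr5a1 lay below the array medians on all 10 arrays. Neither of these calls held in every fit: Zcchc12 did not pass without contralateral array 1 (adjusted p = 0.0508), and Ndn passed in 2 of the 10 fits that left out 1 array, those without ipsilateral array 1 and contralateral array 4.

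Of 8 claustrum and amygdala genes Lmo3 alone rose (1.04 ± 0.26, median of the list 0.73), and among the 10 fits that left out 1 array its call held only without ipsilateral array 1 or 3 or contralateral array 4. Of 10 striatal and 10 hippocampal genes 0 passed in limma, with 4 and 2 higher and 0 lower at an unadjusted p under 0.05 and medians of 0.35 and 0.18. The range of the neocortical score was 9.19 to 9.41 ipsilaterally and 9.66 to 9.82 contralaterally, and that of the hypothalamic score 5.67 to 6.33 and 5.42 to 5.71. That of the claustrum and amygdala score was 8.14 to 9.23 and 7.87 to 8.70, of the striatal score 6.64 to 7.70 and 6.45 to 6.69, and of the hippocampal score 6.17 to 7.23 and 6.28 to 6.91. The part of the tissue's position in the 7 genes' differences was not tested.

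Cell-type lists gave fewer calls. The list of GABAergic neurons held 12 genes, including those of the Nos1-rich class. In it the substance P receptor Tacr1 rose by 1.27 ± 0.30 and Id2 fell by 0.86 ± 0.16. Sst (-0.19), Npy (-0.62) and Chodl (0.33), which mark the Nos1-rich class, did not pass (adjusted p = 0.699, 0.347 and 0.204, limma). At an unadjusted p under 0.05, 4 of the 12 were higher and 1 lower. The Tacr1 call held without ipsilateral arrays 1, 3, 4 or 5 or contralateral array 4, and ended without each of the others. Of 12 pan-neuronal genes 3 fell (Rbfox3, Nefl and Nefm), with a median of -0.24, and 6 were lower and 0 higher at an unadjusted p under 0.05. Of 9 astrocyte genes Aqp4 rose, and of 11 fibroblast and vascular genes Dcn and Col1a1 rose, with medians of 0.47 and 0.48. At an unadjusted p under 0.05, 6 astrocyte genes were higher and 1 lower, and 7 fibroblast and vascular genes were higher and 1 lower. The Nefl call ended without contralateral array 1 (adjusted p = 0.0521), that of Dcn without ipsilateral array 2, 4 or 5 or contralateral array 1, 3 or 5 (up to 0.0672), and that of Col1a1 without ipsilateral array 3 or 4 or any 1 contralateral array (up to 0.0963). Of 12 microglia and macrophage, 7 oligodendrocyte and 7 choroid plexus genes 0 passed in limma, with 9 higher, 4 lower and 0 in either direction at an unadjusted p under 0.05 and medians of 0.95, -0.64 and 0.07. Without contralateral array 4, 4 of the 7 oligodendrocyte genes fell, and 4 of 20 hypothalamic, 2 of 8 claustrum and amygdala and 2 of 12 GABAergic genes rose. Score ranges were 8.13 to 10.02 against 7.78 to 8.45 for microglia and macrophages, and 9.82 to 10.82 against 10.17 to 11.27 for oligodendrocytes (ipsilateral against contralateral).

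Known partners and relatives of the 7 genes were set beside them. Of 101 such genes listed, 82 had a row that named them alone. In limma 0 of the 82 rose and 14 fell, beside 1.22% and 4.33% of all genes. At an unadjusted p under 0.05 there were 10 higher and 27 lower, beside 3020 and 3400 of all 30142 genes. Their median log2 difference was -0.01, against 0.02 over all genes.

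Nos1ap, the adaptor that couples Nos1 to other proteins, fell where Nos1 was higher. It read 9.60, 9.47, 9.44, 9.11 and 9.14 ipsilaterally, against 10.76, 10.50, 10.61, 10.04 and 10.51 contralaterally, a log2 difference of -1.13 ± 0.14 (adjusted p = 0.00179, limma). Every ipsilateral array was below every contralateral one, and contralateral array 4 was the lowest of its side. Of the 18 measured genes of nitric oxide and cyclic GMP signalling, Gucy1a2, a subunit of the nitric oxide receptor guanylyl cyclase, also fell (-0.47 ± 0.10, adjusted p = 0.0274, limma), but not without ipsilateral array 5 or contralateral array 1, 2, 3 or 4 (adjusted p up to 0.0773). The postsynaptic scaffold Dlg4, which anchors Nos1, had a difference of -0.29 that did not pass (adjusted p = 0.112) except with each array centred on its median (-0.36, adjusted p = 0.0366). The other synthase genes Nos2 (0.04) and Nos3 (0.02) did not pass, and Nos2 lay below the array medians on all 10 arrays. The list's median was 0.02, with 4 genes higher and 6 lower at an unadjusted p under 0.05.

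Of 13 measured partners and relatives of Hap1, 5 fell and 0 rose, with 7 lower and 1 higher at an unadjusted p under 0.05. Htt, which encodes huntingtin, read 10.36, 10.39, 10.34, 10.20 and 10.04 ipsilaterally, against 10.83, 10.75, 10.88, 10.78 and 10.72 contralaterally, with no overlap (-0.53 ± 0.07, adjusted p = 0.00316, limma). The exchange factor Kalrn fell by 0.83 ± 0.10, and the kinesin motors Kif5a and Kif5c by 0.59 ± 0.12 each. The sorting receptor Sort1, which fell by 0.45 ± 0.08, is the remaining one. The Kif5a call ended without contralateral array 3 (adjusted p = 0.0512) and that of Kif5c without contralateral array 1 (0.0558). Ahi1, whose product forms a stable complex with Hap1 protein in mouse brain, stood at 12.48, 12.84, 13.49, 12.34 and 12.43 ipsilaterally, against 11.90, 12.20, 12.27, 12.66 and 11.97 contralaterally. Its log2 difference of 0.52 did not pass (adjusted p = 0.210), and its contralateral array 4 lay among the ipsilateral arrays.

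**Figure D4:**
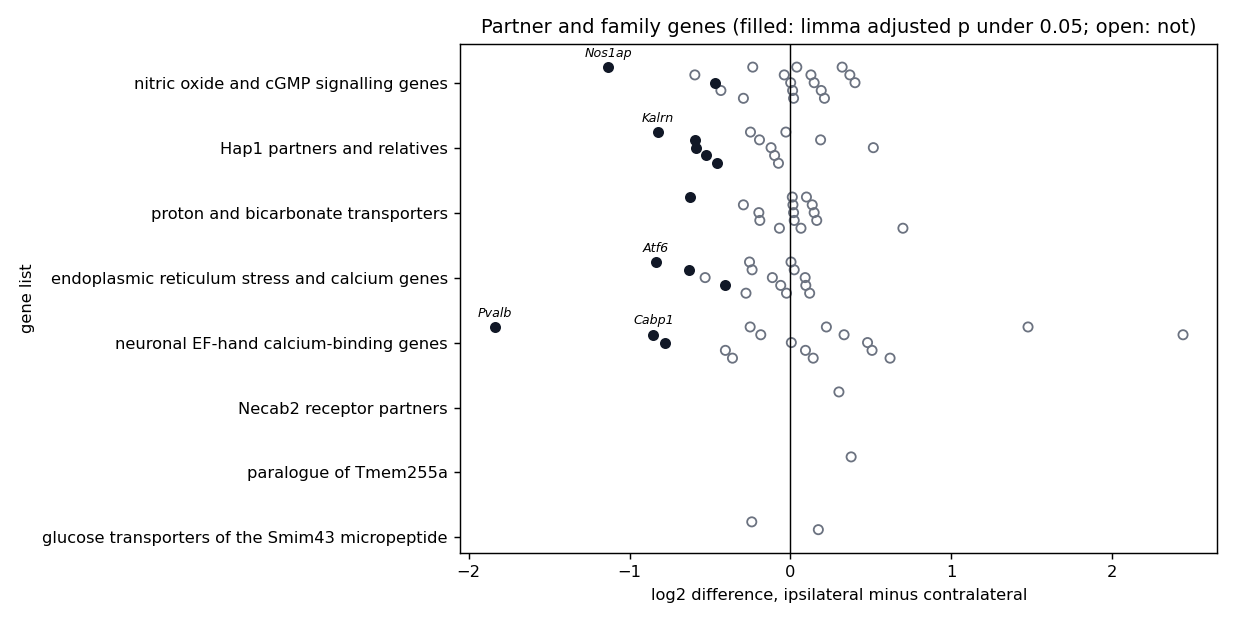
Log2 difference (x axis, ipsilateral minus contralateral) of each measured partner or family gene, by list (rows); filled points passed limma's adjusted p under 0.05 and open ones did not. All 14 filled points lie below 0, from Pvalb at -1.84 to Xbp1 at -0.40.

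Among 15 measured genes of endoplasmic reticulum stress and calcium handling, 3 fell and 0 rose, with 6 lower and 0 higher at an unadjusted p under 0.05. The calcium pump Atp2a2 fell by 0.63 ± 0.08, and Xbp1, a transcription factor of the unfolded protein response, by 0.40 ± 0.07. Atf6, another such factor, fell by 0.84 ± 0.19, but its call held only without ipsilateral array 1 or contralateral array 4 among the 10 fits that left out 1 array (otherwise adjusted p up to 0.0734). The chaperone Hspa5 (0.09) and the stress factor Ddit3 (-0.28) did not pass (adjusted p = 0.451 and 0.378). Cisd2, a relative of Wfs1 by disease, in which mutations also cause Wolfram syndrome, had a difference of -0.25 that missed the threshold (adjusted p = 0.0513) and passed under 8 alternatives, among them quantile, median and cyclic loess scaling (0.00612 to 0.0199).

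Of 17 measured EF-hand genes of neurons, 3 fell and 0 rose, with 5 lower and 4 higher at an unadjusted p under 0.05. Necab3, a relative of Necab2, read 8.51, 7.73, 8.37, 7.70 and 7.68 ipsilaterally, against 8.93, 8.75, 8.73, 8.53 and 8.96 contralaterally (-0.78 ± 0.18, adjusted p = 0.0284, limma). The 2 sides nearly met at ipsilateral array 1 and contralateral array 4, and among the 10 fits that left out 1 array the call held only without ipsilateral array 1 or 3 or contralateral array 4. Necab1 had a difference of 0.14 (adjusted p = 0.651). The interneuron gene Pvalb fell by 1.84 ± 0.26 and the calcium-binding gene Cabp1 by 0.85 ± 0.13. Grm5, a receptor that Necab2 binds, stood 0.30 higher and did not pass (adjusted p = 0.264).

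Of 15 measured transporters of protons and bicarbonate, only Slc9a5, a brain exchanger, passed the test, with a fall of 0.62 ± 0.12 (adjusted p = 0.0152, limma), beside 3 lower and 1 higher at an unadjusted p under 0.05. Slc9a2 read 5.60, 6.58, 5.79, 6.03 and 6.48 ipsilaterally, against 5.22, 5.54, 5.51, 5.70 and 5.01 contralaterally. Its difference of 0.70 ± 0.20 did not pass (adjusted p = 0.0718) except with array weights (0.0319) or without ipsilateral array 1 (0.0287). Slc9a3 (-0.07), Slc9b1 and Slc9c1 lay below the array medians on all 10 arrays. Tmem255b, the paralogue of Tmem255a, differed by 0.38 ± 0.25 (adjusted p = 0.434), with ipsilateral signals of up to 7.69 lying on both sides of the contralateral ones, which ran from 6.33 to 6.77. The glucose transporter genes Slc2a1 (-0.24, adjusted p = 0.482) and Slc2a3 (0.17, adjusted p = 0.564), whose products the Smim43 micropeptide binds, did not pass.

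The genes whose deviations from the side means were most like those of each member were ranked among 10516 other genes with a mean signal of at least 6 (10517 for Slc9a4, which lay below that level). The values describe likeness over 10 arrays that share their tissue, and carry no test. For Tmem255a they were Gpc3, a cell-surface glypican (r = 0.98), the endothelin-converting enzyme gene Ece2 (0.95) and Dner, a neuronal membrane protein related to Notch ligands (0.94), and Wfs1 followed in 4th place and Nos1 in 9th. For Wfs1 they were Golt1b (0.96), the synaptic vesicle gene Syngr3 (0.95) and Prag1 (0.95), with Tmem255a in 5th place and Nos1 in 7th. For Nos1 they were Ift22 (0.98), the adhesion gene L1cam (0.97) and the microtubule-end gene Mapre2 (0.97), with Wfs1 in 18th and Necab2 in 20th place.

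For Necab2 the nearest genes were Kitl, the ligand of the receptor Kit (0.95), Nos1 (0.94) and the ubiquitin ligase gene Cbl (0.93). For Hap1 they were Arhgap33 (0.99), the adaptor subunit gene Ap3d1 (0.97) and Abcf3 (0.97), with the other members between the 180th (Wfs1) and the 8246th place (Smim43). For Slc9a4 they were Cidea (0.92), Jrkl (0.91) and Ccdc138 (0.90), and Necab2 was its nearest member, in 2480th place. For Smim43 they were the ubiquitin-conjugating gene Ube2h (0.95), Rnf168 (0.94) and Zfp763 (0.93). Values of r above 0.8 were common for Hap1, with 3.86% of genes, Nos1 (3.32%), Tmem255a (2.45%) and Wfs1 (2.03%), and rare for Slc9a4 (0.14%).

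Of the 20 nearest genes that are not members, 4 rose and 0 fell in limma, beside 1.22% and 4.33% of all genes. At an unadjusted p under 0.05, 4 were higher and 5 lower, beside 3020 and 3400 of all 30142 genes. The 20 were picked on the same arrays, by likeness to members chosen by the side difference. Their counts and limma calls are therefore not independent of that choice, and cannot show a rise apart from it. Gpc3 rose by 1.14 ± 0.22 (adjusted p = 0.0142), standing at 6.73 ± 0.39 ipsilaterally and 5.59 ± 0.39 contralaterally (SD, n = 5 each). Dner rose by 0.95 ± 0.22, Ece2 by 0.50 ± 0.12 and Cidea by 0.46 ± 0.10. The Gpc3 call held in all 10 fits that left out 1 array, whereas those of the other 3 ended in 4 (Cidea) or more of them. Arhgap33, whose profile was nearest to that of Hap1, had a difference of 0.14 ± 0.22 (adjusted p = 0.783), and Syngr3, near to Wfs1, one of 0.03 ± 0.12 (adjusted p = 0.924).

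The side differences of the 7 genes were recomputed under 17 alternatives each, 119 values in all. All 119 kept their sign and lay within 1 SD between replicates of the values given above. Much of this was fixed in advance, since the genes were chosen by these same differences. No ipsilateral array overlapped a contralateral one, so leaving out arrays could not change a sign. Leaving out 1 array also moves the mean of its side by less than 1 SD. Each gene had a single row and the sides were equal in size, so averaging rows and the replicate block could not change the differences. When single arrays were left out, Tmem255a ranged from 2.57 to 2.97, Hap1 from 1.65 to 2.22, Wfs1 from 1.61 to 2.03, Necab2 from 1.47 to 1.85, Nos1 from 1.47 to 1.80, Slc9a4 from 1.45 to 2.13 and Smim43 from -2.61 to -2.28. The highest values of Tmem255a, Hap1, Wfs1, Necab2 and Nos1 in these fits were those without contralateral array 4.

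**Figure D5:**
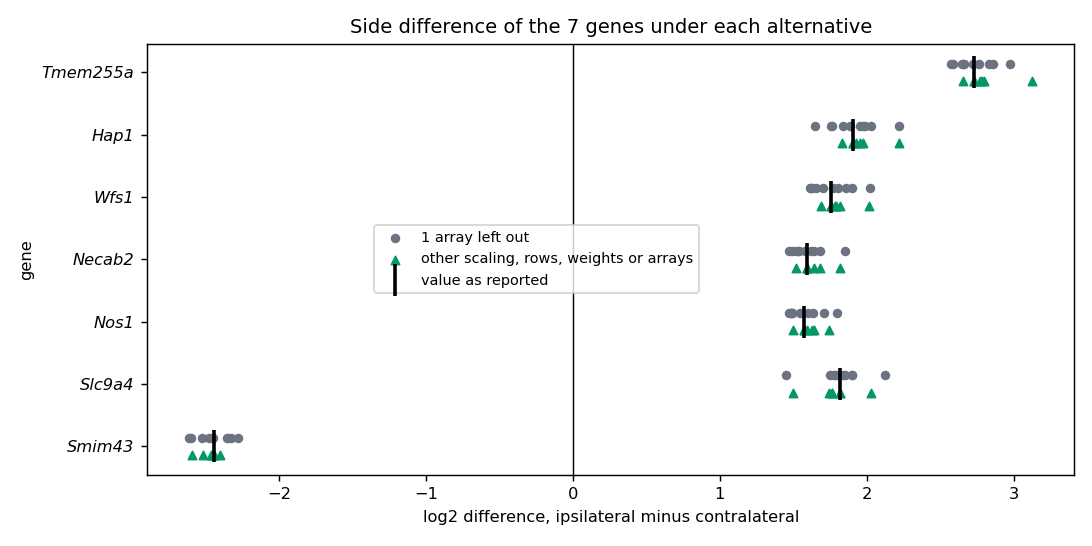
Log2 difference (x axis, ipsilateral minus contralateral) of each gene (rows) as reported (black bar), with 1 array left out (grey points) and under the other alternatives (green triangles). Every point of a gene lies on the same side of 0 as its reported value.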

How the data were processed

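Per the submitters' processing notes, the authors made the log2 signals with Transcriptome Analysis Console 4.0; for background correction, normalization and genome build the sources used here gave no account. The deposited log2 table had 65956 rows and 1 column per array, with values from 1.97 to 19.93. The array annotation named 1 gene for 30604 rows, several for 2146 and none for 33206. Symbols were updated through Entrez identifiers and RefSeq GRCm38.p6 (22818 rows matched, 827 symbols changed). The brightest row per gene by its 10-array mean was kept, and rows naming several genes were left out, leaving 30142 genes.

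Ipsilateral minus contralateral was estimated per gene with lmFit and eBayes (limma 3.58.1, R 4.3.3) over the 10 arrays, without covariates. Calls were two-sided, with p adjusted over all genes (Benjamini-Hochberg) and a threshold of 0.05. On simulated data for this comparison (30142 genes), the test recovered 58% of true log2 changes of 0.5, 91% of 1 and 94% of 2. The number of arrays limits the precision. The members and the gene lists were chosen with earlier results of these data known. Named were the members, called partner genes (at most 4 per list by size), direct partners, at most 2 called genes per region list, and the 3 nearest genes by r, leaving out predicted, receptor-segment, olfactory and small RNA genes. Sort1, Bcl11b, Dlk1, cell-type list genes, Nos2, Nos3, Hspa5 and Ddit3 fell outside this rule and were named after their values were seen. Alternatives covered scaling, rows, dim genes, weights, variance, threshold, a replicate block and omitted arrays.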

Additional observations from a re-analysis of the deposited data

Results flagged for a closer look

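Each side's 5 values of every member and of every region and cell-type score, 38 groups in all, were examined for an array whose gap to its nearest neighbour took up more of the group's range than Dixon's critical value allows, which chance does in about 1 in 20 groups. No member had such an array. The hippocampal score of contralateral array 2 was 6.91, above 6.28 to 6.44 on the other 4 contralateral arrays (gap 0.757 of the range). The oligodendrocyte score of contralateral array 4 was 10.17, below 10.99 to 11.27 on the other 4 (gap 0.748 of the range), and this is the array on which Tmem255a, Hap1, Wfs1, Necab2 and Nos1 stood highest on that side.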

How the results depend on the processing

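The side differences of the 7 genes kept their sign under the alternatives tried, and Slc9a4 ranged from 1.45 to 2.13 with 1 array left out. As described above, much of this was fixed in advance, and the replicate block could not change these differences. Genes called higher over the table numbered 369, and 232 with arrays centred on their medians, 177 with the replicate block, 656 with array weights, 77 without the arrays numbered 2 and 4, 47 at a threshold of 0.01, and 111 to 760 with 1 array left out. Genes called lower numbered 1305, and 2623 (median centring), 769 (replicate block), 289 (without the arrays numbered 2 and 4), 537 (threshold of 0.01) and 740 to 1607 (1 array left out). Rises were 22% of calls, and 8.13% with median centring. Partner genes called higher numbered 0, and 1 with cyclic loess scaling, 2 with array weights and 0 to 6 with 1 array left out; those called lower numbered 14, and 4 without the arrays numbered 2 and 4 10 with the replicate block and 10 to 19 with 1 array left out. Of 21 member pairs 10 were related, 4 by Spearman's rho and 0 to 14 with 1 array left out (0 without contralateral array 4, 2 without contralateral array 3). Same-numbered arrays correlated in their deviations at 0.26, 0.25, -0.04, -0.40 and -0.03, and only array 1 correlated best with its own number, so the numbers were not taken as pairs. The replicate block ended the calls of Gucy1a2, Kif5a, Kif5c, Sort1, Ndn, Lmo3, Tacr1, Nefl, Col1a1, Ece2 and Dner. Omitting the arrays numbered 2 and 4 ended, among others, those of Htt, Kalrn, Xbp1, Cabp1, Slc9a5, Pou3f2, Id2, Nefm, Aqp4 and Gpc3. Their adjusted p in limma was then 0.0522 to 0.224. In that fit the calls of Nos1ap, Sort1, Atp2a2, Pvalb and Lamp5 held. Relations within sides were not run with the block, since it leaves fewer than 6 independent values. The cause of these changes was not tested.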

Other observations

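Contralateral array 4 also stood apart from its side in some listed genes, named here after their values were seen. Hpcal1, a neuronal calcium sensor, read 7.80, 9.86, 10.50, 9.61 and 9.70 on ipsilateral arrays 1 to 5, against 7.30, 7.53, 8.07, 9.45 and 7.73 on contralateral ones (1.48 ± 0.51, adjusted p = 0.128, limma). Its contralateral array 4 lay between ipsilateral array 1 and the other 4 ipsilateral arrays, and its ipsilateral array 1 lay among the contralateral ones. Prkg2, a cyclic GMP-dependent kinase downstream of nitric oxide, stood at 8.45 on contralateral array 4 and at 7.24 to 7.40 on the other 4 contralateral arrays, with 7.47 to 7.89 on the ipsilateral ones. Pvalb, which fell between the sides, stood at 7.48 on that array and at 8.47 to 8.78 on the rest of its side, with 6.01 to 7.04 ipsilaterally.

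Calb2, the calretinin gene, was at 14.06 on ipsilateral array 1, at 9.11 to 10.62 on the other 4 ipsilateral arrays, and at 7.89 to 9.0 contralaterally (2.44 ± 0.80, adjusted p = 0.108, limma). The choroid plexus score was highest on the array numbered 2 of each side, at 9.25 ipsilaterally and 9.95 contralaterally, and next highest on that numbered 4, at 7.59 and 7.16. Slc9a4 was also highest on the array numbered 2 of each side, at 8.03 ipsilaterally and 5.05 contralaterally. On the array numbered 4, however, it was at 6.21 and 4.59, below its signal on arrays 2 and 5 of the same side. Its contralateral signals lay around the array medians, and a relation to the choroid plexus score was not tested.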
